A study of Mus musculus with 6 samples.

Results

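Siglec receptors are lectins of the immune cell surface that bind sialic acid, the sugar that caps many glycans of the cell surface. The genes described here are Siglech, Siglece, Siglec1, Cd33 and Cd22, which were taken by symbol from the count and FPKM tables, where all 5 were found among 41079 listed genes. RNA of cultured neonatal mouse microglia was sequenced in 3 control libraries and 3 libraries of optimized conditions. The cells came from brains of C57Bl/6N pups aged 1 to 3 days. According to the study's methods, brains of several pups were pooled in a flask and kept for weeks in medium with serum. The microglia were expanded with L-929 conditioned medium and shaken off this mixed glial culture in repeated harvests. Which harvest each library came from is not stated in the study's text. After seeding, every well again had a short contact with serum while the cells attached. Control cultures were then kept in serum-free DMEM/F12. Cultures under optimized conditions received human TGF-β1, IL-34 and CX3CL1 at 100 ng/mL each, and the study's methods add cholesterol, insulin-transferrin-selenium and a collagen IV coating, which the sample labels do not name. The supplements were given together, so their separate parts cannot be told apart.

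Most Siglecs carry tyrosine motifs in the cytoplasmic tail, called ITIMs, which recruit the phosphatases SHP-1 and SHP-2 and dampen activating signals. Siglec-H lacks such a motif and pairs with the adaptor DAP12, which signals through the kinase Syk. Brain cells are rich in sialic acid, so microglial Siglecs are commonly described as sensors of intact neighbours. Siglec-H is widely used as a marker of microglia and of plasmacytoid dendritic cells. CD33 is known for its link to the risk of Alzheimer's disease, CD22 is best known as an inhibitory receptor of B cells, and Siglec-1, also called CD169 or sialoadhesin, is a macrophage receptor that binds sialylated cells and particles.

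The count totals lay between 20628148 and 27261839 per library. Counts are given below as CPM, scaled to library size with the TMM factors of edgeR, and levels of different genes are compared as FPKM, which is per length. Values after ± are the SD over 3 libraries for levels and the standard error (SE) for log2 fold changes, which are optimized relative to control. Libraries of a condition differed by more than counting noise, and optimized library 1 stood apart from optimized libraries 2 and 3, with chi-square values per gene of 79.9 and 46.8 against 14.7 between the other two. Microglia markers were present in all libraries. Tmem119, P2ry12 and Cx3cr1 were called higher and Csf1r and Aif1 lower (edgeR), with Tmem119 going from 6.29 ± 0.42 to 96.7 ± 12.7 CPM and Csf1r from 2385 ± 67.1 to 1815 ± 67.8 CPM (SD, n = 3 each), and C1qa was not called. In bulk RNA, fewer cells of a type and less RNA per cell cannot be told apart.

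Of the 5 Siglec genes, 4 rose under the optimized conditions and none fell. Cd33, Siglech, Cd22 and Siglec1 passed an adjusted p-value of 0.05 with a higher level, and Siglece did not pass (quasi-likelihood test of edgeR, p-values adjusted by the Benjamini-Hochberg method for all 14618 genes). All 5 had enough counts to be tested. Over all genes tested, 29.8% were called, 14.7% higher and 15.2% lower. The median log2 fold change of the 5 genes was 0.75, and that of all genes tested was 0.0079. For 4 of the 5 genes every optimized library lay above every control library in CPM, which was the case for 21.4% of the genes tested, with 43.9% free of overlap in either direction. A log2 fold change at least as high as that of Cd33 was found for 3.58% of the genes tested.

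**Figure D1:**
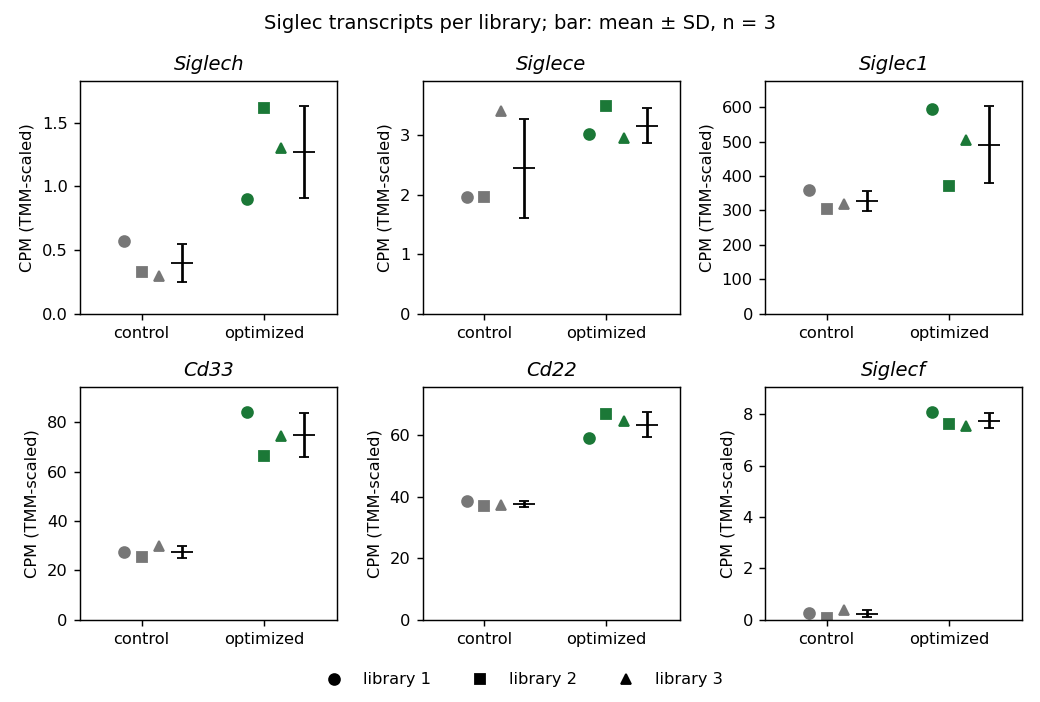
CPM after TMM scaling (vertical axes from 0) of the 5 Siglec genes and of Siglecf in each control and optimized library, with the mean and SD of 3 libraries as a bar. Siglece is the one gene whose libraries overlap between the conditions, with control library 3 at 3.4 CPM, and Siglecf goes from under 0.37 to over 7.5 CPM.

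Cd33 had the best resolved change. CD33 is an inhibitory receptor of myeloid cells in humans, and the mouse protein lacks a typical membrane-proximal ITIM. The gene lies on the minus strand of chromosome 7 of GRCm39 from 43173634 to 43193875. In control libraries 1 to 3 it was counted 627, 620 and 814 times, and in optimized libraries 1 to 3 there were 1781, 1562 and 1538 counts. In CPM these were 27.4, 25.3 and 29.8 against 84.2, 66.5 and 74.3. The conditions were far apart, and optimized library 1 was the highest. Cd33 rose 2.73-fold, with a 95% interval of 2.3 to 3.24, which is 1.45 ± 0.11 as log2 fold change (edgeR, adjusted p = 7.5e-06). Without optimized library 1 the log2 fold change was 1.36.

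Cd22, on the minus strand of chromosome 7 from 30564827 to 30579767, encodes an ITIM-bearing receptor that prefers sialic acid in α2,6 linkage. The control libraries reached 38.7, 37.0 and 37.1 CPM and the optimized libraries 58.9, 66.8 and 64.4 CPM. Control values fell in a narrow range, and all optimized values were above it. Cd22 rose 1.68-fold (log2 fold change 0.75 ± 0.086, 95% interval 0.56 to 0.94, edgeR, adjusted p = 0.00011). Without optimized library 1, the lowest of its group for Cd22, the log2 fold change was 0.80. B cell markers were nearly absent from the libraries. Pax5 and Blk were at 0 counts in all libraries, Cd79a had 0 to 6 counts and Ms4a1 had 0 to 5, and Cd79b went from 0.68 ± 0.27 CPM in control to 0.46 ± 0.052 CPM (SD, n = 3 each) with overlapping ranges.

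Siglec1, on the minus strand of chromosome 2 from 130911140 to 130928685, was the most abundant of the 5 genes. Its receptor has a long chain of immunoglobulin domains and a short tail without an ITIM. The counts were 8219, 7435 and 8747 without and 12614, 8751 and 10458 with the supplements. Scaled to CPM, the control libraries had 359, 303 and 320 and the optimized libraries 596, 372 and 506. Optimized library 2 was just above control library 1, and the SD over optimized libraries was 113 CPM against 28.7 CPM over control libraries. Siglec1 rose 1.5-fold (log2 fold change 0.59 ± 0.16, 95% interval 0.24 to 0.94, edgeR, adjusted p = 0.018). In FPKM, optimized library 2 had 50.2 and control library 1 had 57.0, so the conditions overlapped on that scale. The call did not hold under scaling by library size without TMM factors, where the log2 fold change was 0.47 (edgeR, adjusted p = 0.092), nor with limma on FPKM. The call also ended without control library 2, control library 3 or optimized library 3, with log2 fold changes of 0.53, 0.57 and 0.57 and adjusted p-values of 0.094, 0.064 and 0.060 (edgeR). Without optimized library 1 the log2 fold change of Siglec1 was 0.42 with an adjusted p of 0.0098 (edgeR).

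Siglec1 also marks macrophages at the borders of the brain. The chosen markers of those cells moved both ways. Of 6 markers, 4 were tested, and all passed the threshold (edgeR), F13a1 and Pf4 with higher and Mrc1 and Clec10a with lower levels. Mrc1, the mannose receptor, fell from 330 ± 21.8 to 62.6 ± 5.34 CPM (SD, n = 3 each). Cd163 went from 4, 7 and 8 counts to 0, 0 and 1, and Lyve1 had 0 to 4 counts in control and 3 to 11 under optimized conditions. The 6 markers summed to 475 to 523 CPM in control and 261 to 367 CPM in optimized libraries, and their part in the level of Siglec1 was not tested.

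Siglech, on the plus strand of chromosome 7 from 55417926 to 55429195, was rare in all libraries, with 13, 8 and 8 counts in control and 19, 38 and 27 counts under optimized conditions. These correspond to 0.57, 0.33 and 0.29 CPM against 0.90, 1.62 and 1.31 CPM. The conditions did not overlap, although optimized library 1 was closer to control library 1 than to optimized library 2. Siglech rose 3.24-fold, with a wide 95% interval of 1.74 to 6.03 (log2 fold change 1.69 ± 0.40, edgeR, adjusted p = 0.0098). Without control library 3 the log2 fold change was 1.5 with an adjusted p of 0.054 (edgeR), and without optimized library 1 it was 1.89. In FPKM, only 3.38% of the genes tested had a lower mean than Siglech in control, and 10.2% did in optimized libraries. The 6 markers of plasmacytoid dendritic cells moved both ways. Klk1 and Ly6d had counts in optimized library 1 only, with 8 and 9. Spib went down from 9, 16 and 10 counts in control to 4, 1 and 0 under optimized conditions, too few to be tested. Pacsin1 went up from 11, 6 and 7 counts to 17, 17 and 11. Ccr9 overlapped, with 2, 7 and 4 counts against 10, 4 and 8. Those 6 markers summed to 3.19 to 3.55 CPM in control and 4.6 to 5.48 CPM in optimized libraries, mostly from Cox6a2, none of the tested ones was called, and their part in the level of Siglech was not tested.

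Siglece, on the minus strand of chromosome 7 from 43298405 to 43309607, encodes an ITIM-bearing inhibitory receptor of mouse myeloid cells. It was counted 45, 48 and 93 times in control and 64, 82 and 61 times under optimized conditions. Scaled to CPM, control libraries 1 and 2 had 1.97 and 1.96, control library 3 had 3.4, and the optimized libraries had 3.03, 3.49 and 2.95. Control library 3 thus lay inside the optimized range. For Siglece the log2 fold change was 0.36 ± 0.26 (edgeR, adjusted p = 0.34), and the 95% interval of the fold reached from 0.86 to 1.93. Without control library 3 the log2 fold change was 0.68, still with an adjusted p above the threshold (edgeR, adjusted p = 0.094). In the annotation, exons of Siglece share 1639 bases with Ceacam18 on the other strand, and Ceacam18 had at most 1 count in any library. The strand setting of the counting is not given, so how reads in the shared bases were assigned is not known. The level of Siglece carries this limit.

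Levels per length differed widely among the 5 genes. In control libraries the mean FPKM was 51.0 ± 5.18 for Siglec1, 9.41 ± 0.48 for Cd33, 8.16 ± 0.42 for Cd22, 1.2 ± 0.36 for Siglece and 0.11 ± 0.042 for Siglech (SD, n = 3 each). The ranges of Cd33 and Cd22 did not overlap but lay close, with 8.87 as the lowest for Cd33 and 8.55 as the highest for Cd22. In optimized libraries the means were 70.0 ± 18.7, 23.5 ± 3.7, 12.5 ± 0.44, 1.41 ± 0.076 and 0.30 ± 0.075 FPKM in the same order (SD, n = 3 each), so the order of the genes was unchanged and the gap between Cd33 and Cd22 was wider.

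**Figure D2:**
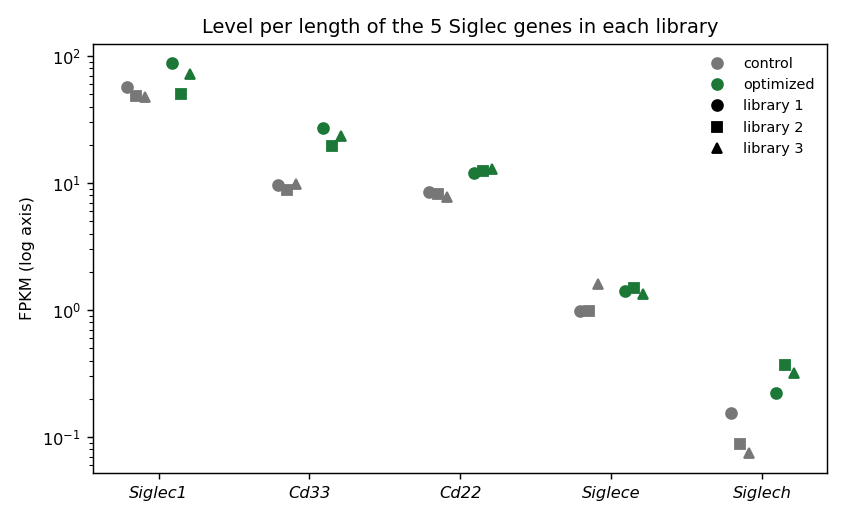
FPKM of the 5 Siglec genes (log axis) in each of the 6 libraries, ordered by their mean in control. Siglec1 is highest in every library and Siglech lowest, and optimized library 2 of Siglec1, at 50.2 FPKM, lies within the control range.

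Among the Siglec transcripts, the share of Cd33 was higher and that of Siglec1 lower in every optimized library than in any control library. The summed FPKM of the 5 genes was 76.3, 66.5 and 66.9 in control and 128, 84.3 and 110.5 in optimized libraries. Cd33 made up 12.6%, 13.4% and 14.6% of this sum in control and 21.2%, 23.4% and 21.3% in optimized libraries. Siglec1 made up 74.7%, 72.7% and 71.3% in control and 68.2%, 59.5% and 65.6% in optimized libraries. The shares of Cd22 overlapped, with means of 11.7% and 12%. These shares do not depend on how the libraries were scaled.

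Ratios of counts within a library, likewise free of scaling, were formed for all 10 pairs of the 5 genes. For 5 of the 10 pairs the conditions did not overlap, and 3 of the 10 are given here. The pairs reuse the same 5 genes, and no share over pairs of all genes was formed to set beside this count. Of single genes tested, 43.9% were free of overlap in CPM. The ratio of Cd33 to Cd22 was 0.71, 0.68 and 0.80 in control and 1.43, 1.0 and 1.16 in optimized libraries. For Siglec1 to Cd33 it was 13.1, 12 and 10.8 in control and 7.08, 5.6 and 6.8 in optimized libraries. The ratio of Siglec1 to Cd22 overlapped, with 9.28, 8.18 and 8.62 against 10.1, 5.58 and 7.85. The ratios were formed after the values of the genes had been seen. By the two-sided exact permutation test, unadjusted for the 10 pairs, Cd33 to Cd22 and Siglec1 to Cd33 gave p = 0.1, and Siglec1 to Cd22 gave 0.7. The value of 0.1 is the smallest that 3 libraries against 3 allow. Siglech to Siglece, Siglech to Cd22 and Siglece to Cd33 gave the same 0.1.

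Beyond the 5 genes, the Siglecs listed in the files were Siglecf, Siglecg, Siglec15 and Mag, of which Siglecf and Mag had enough counts to be tested. Siglecf rose 31.6-fold, and its 95% interval of 19.3 to 51.8 lay above those of all 5 genes. Siglec-F, an ITIM-bearing receptor best known from eosinophils and alveolar macrophages, is encoded on the plus strand of chromosome 7 from 43000765 to 43008955. Control libraries held 6, 2 and 10 of its counts and optimized libraries 171, 179 and 156. In CPM, these were 0.26, 0.082 and 0.37 against 8.08, 7.62 and 7.54. The optimized libraries lay close together, and every control library was near 0. On the log2 scale the change was 4.98 ± 0.32 (edgeR, adjusted p = 2.2e-06), and 0.116% of the genes tested, 17 in number, were called with a log2 fold change at least as high. The control level rests on 18 counts in all, so the size of the fold is imprecise, and without control library 2 or 3 it was 4.58 and 5.47 on the log2 scale. Without optimized library 1 it was 4.95.

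Markers of eosinophils and alveolar macrophages were looked up after the change of Siglecf had been seen. Among 7 eosinophil markers, Prg2, Prg3, Ear1 and Ear6 were at 0 counts in all libraries, Epx had 1 count in all, and Ccr3, the eotaxin receptor, had 57, 48 and 82 counts in control and 0 in each optimized library. Il5ra had 6 counts in control library 2 and 0 elsewhere. The 7 eosinophil markers summed to 2.2 to 3 CPM in control, mostly from Ccr3, and to 0 under optimized conditions. Their part in the level of Siglecf was not tested. Of 7 alveolar macrophage markers, Car4, Krt79 and Chil3 were at 0 in all libraries. Marco fell from 646, 814 and 1050 counts to 23, 84 and 57 (log2 fold change -3.74 ± 0.29, edgeR, adjusted p = 8.8e-06). Atp6v0d2 went from 1953, 2148 and 2398 counts to 1498, 1553 and 1510 (log2 fold change -0.31 ± 0.079, edgeR, adjusted p = 0.014). Ear2 and Fabp1 had at most 2 and 1 counts. That list summed to 113.6 to 126.1 CPM in control and 69.7 to 75.7 CPM in optimized libraries, mostly from Atp6v0d2. Its part in the level of Siglecf was not tested.

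Cd33 and Siglecf lie in a Siglec cluster on chromosome 7 and share sequence before the starts of their canonical transcripts. The 250 bases before the start of the Ensembl canonical transcript of each gene, read 5′ to 3′ on the gene's own strand from GRCm39, are shown because this stretch aligned better between these than between any other pair of the 6 genes. The windows are chr7:43182596-43182845 on the minus strand for Cd33 and chr7:43000572-43000821 on the plus strand for Siglecf, and capitals mark bases that are identical in a local alignment of the pair.
Cd33: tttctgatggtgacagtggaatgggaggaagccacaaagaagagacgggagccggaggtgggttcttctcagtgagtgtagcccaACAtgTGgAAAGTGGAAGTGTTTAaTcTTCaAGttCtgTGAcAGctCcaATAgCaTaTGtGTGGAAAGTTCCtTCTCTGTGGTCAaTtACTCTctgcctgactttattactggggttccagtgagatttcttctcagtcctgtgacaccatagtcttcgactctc
Siglecf: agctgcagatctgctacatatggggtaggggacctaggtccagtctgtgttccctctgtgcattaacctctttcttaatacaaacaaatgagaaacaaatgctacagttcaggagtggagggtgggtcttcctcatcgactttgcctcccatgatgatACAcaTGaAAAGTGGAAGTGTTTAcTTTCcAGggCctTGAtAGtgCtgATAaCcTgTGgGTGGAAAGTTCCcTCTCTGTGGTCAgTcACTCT

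The aligned stretch had 93 columns, of which 76.3% were identical, and it began 165 bases before the start of Cd33 and 92 bases before that of Siglecf. Its alignment score was 47, against 8 to 14 for the other pairs among the 6 genes. Siglecg, which lies between Siglecf and Cd33, was not aligned. The longest run shared letter for letter, AAAGTGGAAGTGTTTA, has 16 bases and was found on either strand of the same window in 2 of 21770 protein-coding genes, namely Cd33 and Siglecf. Other annotated transcripts of these genes start further upstream, and the Cd33 window lies inside the annotated gene. In all, 169 bases of the Cd33 window and 57 bases of the Siglecf window lie in annotated exons. Part of the aligned stretch is thus annotated as exon in both genes. The alignment describes the letters of the genome, and no factor was measured there. Its part in the levels of Cd33 and Siglecf was not tested.

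The same windows were searched on both strands for the letters of known motifs. The core GAGGAA, which PU.1 recognizes, was found in 22.9% of the 21770 windows, and among the 5 Siglec genes in those of Siglece, Cd33 and Cd22. The SMAD box CAGACA was found in 15.6% of all windows and in those of Siglech and Cd22. Neither the interferon-stimulated response element, held by 3.32% of all windows, nor the AP-1 site TGANTCA, held by 6.17%, was found in any of the 5. No matches overlapped, and the absence of a match says only that these letters are not in the window.

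Mag, or Siglec-4, is a myelin protein of oligodendrocytes, and its gene is the neighbour of Cd22, 18697 bases away on the same strand. Mag was counted 233, 253 and 297 times in control and 180, 279 and 218 times under optimized conditions, with overlapping ranges. Its log2 fold change was -0.019 ± 0.14 (95% interval -0.33 to 0.30, edgeR, adjusted p = 0.94), while its neighbour Cd22 rose. Oligodendrocyte markers were present in all libraries, with Mbp at 94.1 ± 2.91 and 119 ± 13.3 CPM (SD, n = 3 each). The 6 markers summed to 126.9 to 142.6 CPM in control and 157.8 to 192.5 CPM in optimized libraries, and 1 of the 6, Mbp, was called higher (edgeR). Siglecg and Siglec15 had at most 10 counts in any library, with sums of 6 and 9 in control and 11 and 21 under optimized conditions, and were not tested.

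The neighbours of the Siglec genes had mixed values. At lower coordinates, next to Cd33 and Cd22, Siglecl1 and Ffar1 had at most 5 and 3 counts. Tubgcp5, 14681 bases from Siglech, was called higher with a log2 fold change of 0.73 ± 0.099 (edgeR, adjusted p = 0.00035). Luzp2, 499292 bases away on the other side of Siglech, had 6 to 18 counts and a log2 fold change of -0.021 ± 0.45. Ctu1, next to Siglece, had -0.32 with overlapping conditions. Adam33, which lies 5358 bases from Siglec1 on the same strand, was called higher with a log2 fold change of 1.29 ± 0.16 (edgeR, adjusted p = 0.00019), and Hspa12b on the other side of Siglec1 had 2 to 7 counts.

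Siglec receptors signal through a small set of partners, and 4 of 7 listed partners fell while 4 of the 5 receptors rose. Among the partners 1 was called higher and 4 lower, against 14.7% and 15.2% of all genes tested, with a median log2 fold change of -0.25. Syk, the kinase that binds phosphorylated DAP12, fell from 316, 293 and 290 CPM to 177, 160 and 173 CPM, with a log2 fold change of -0.82 ± 0.085 (edgeR, adjusted p = 5.6e-05). All optimized libraries lay far below the control libraries. Ptpn6, which encodes SHP-1, fell with a log2 fold change of -0.48 ± 0.099. Ptpn11, which encodes SHP-2, and Lyn, a kinase that phosphorylates ITIMs, had log2 fold changes of -0.30 and -0.25 with adjusted p-values of 0.040 and 0.041 (edgeR), and each lost the call in 6 of 15 alternative analyses.

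Inpp5d, which encodes the lipid phosphatase SHIP-1, went the other way. Control libraries lay at 272, 250.5 and 251 CPM and optimized libraries at 536, 484 and 491 CPM, with no overlap. Inpp5d rose with a log2 fold change of 0.97 ± 0.087 (edgeR, adjusted p = 2.3e-05). The adaptors were not called. Tyrobp, which encodes DAP12, had 558, 575 and 790 CPM in control and 574, 1268 and 861 CPM under optimized conditions, with a log2 fold change of 0.49 whose 95% interval reached from -0.070 to 1.05 (edgeR, adjusted p = 0.18). Optimized library 1 lay within the control range, and without it the log2 fold change of Tyrobp was 0.73 (edgeR, adjusted p = 0.0021). Hcst, which encodes DAP10, behaved likewise, with 0.62 over all libraries and 0.86 without optimized library 1.

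**Figure D3:**
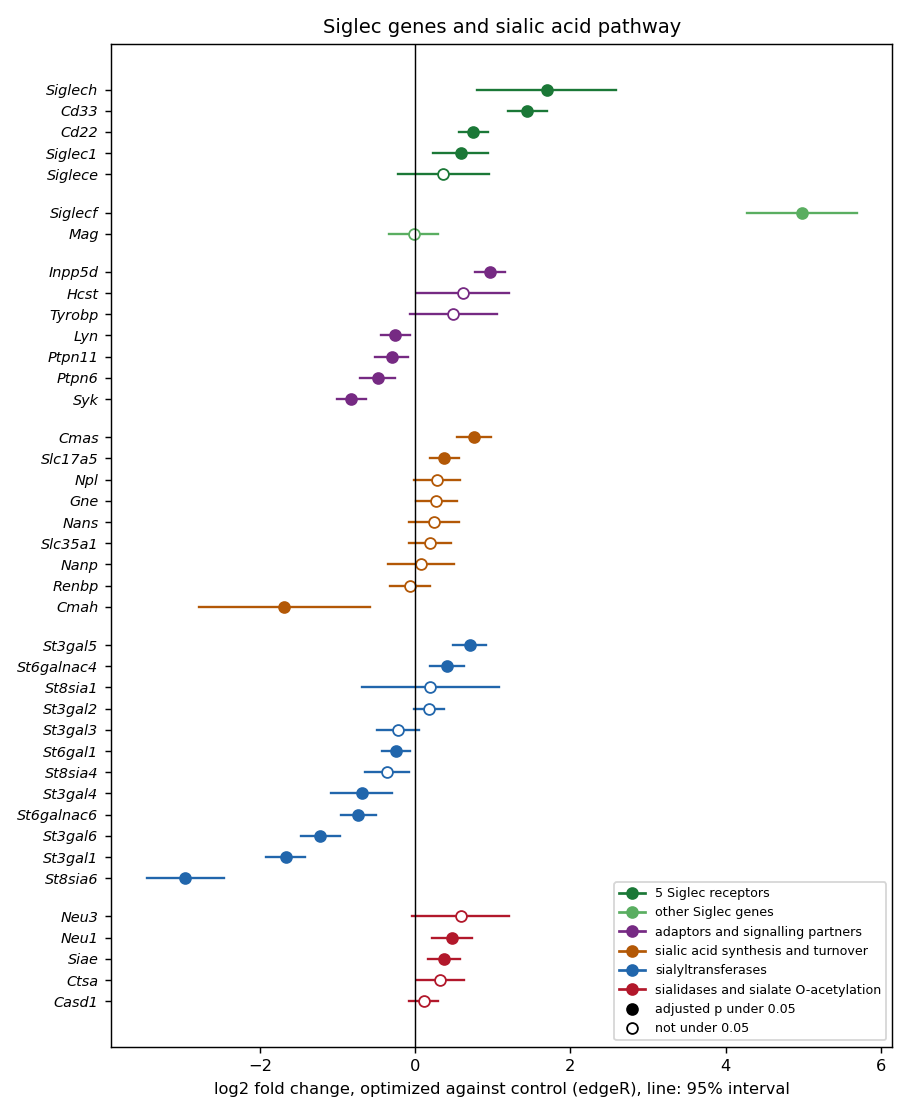
Log2 fold change of each tested gene, optimized against control, with its 95% interval as a line and filled points for an adjusted p-value under 0.05 (edgeR), grouped by gene list. Siglecf lies far to the right at 4.98, and the largest falls plotted are those of St8sia6, Cmah and St3gal1.

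Enzymes that attach sialic acid, and so build Siglec ligands, fell in 6 of 12 cases tested. Of 20 sialyltransferase genes, these 12 had enough counts, with 6 called lower and 2 higher, against 15.2% and 14.7% of all genes tested, and a median log2 fold change of -0.30. St3gal1, which caps the core of O-glycans with α2,3-linked sialic acid, fell from 120.3, 117.4 and 120.2 CPM to 43.4, 32.2 and 37.2 CPM, which is -1.67 ± 0.11 as log2 fold change (edgeR, adjusted p = 3e-06). St8sia6, an α2,8-sialyltransferase, fell from 185, 165 and 194 counts to 24, 23 and 14, or -2.96 ± 0.22 on the log2 scale (edgeR, adjusted p = 6.1e-06). In both genes the conditions were far apart. St3gal6, St6galnac6 and St3gal4 had log2 fold changes of -1.22, -0.73 and -0.69. St3gal5, the synthase of the ganglioside GM3, was higher at 0.70 ± 0.094 (edgeR, adjusted p = 0.00031). St6galnac4 was also called higher, at 0.41 ± 0.097 (edgeR, adjusted p = 0.0096). St6gal1, which makes the α2,6-linked ligands that CD22 prefers, went from 106.6 ± 4.95 to 89.9 ± 3.94 CPM (SD, n = 3 each), or -0.25 on the log2 scale (edgeR, adjusted p = 0.047). St6gal1 is given beside Cd22 although it was outside the rule for named genes, after its value had been seen. St6galnac4 was likewise outside that rule. Neither gene was followed singly through the alternative analyses.

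Among genes of sialic acid synthesis and turnover, Cmas and Slc17a5 rose and Cmah fell. Of 9 tested, 2 were higher and 1 lower, which is near the 14.7% and 15.2% of all genes tested, with a median log2 fold change of 0.25. Cmas, which activates sialic acid for transfer, rose from 54.8 ± 2.1 to 93.0 ± 9.98 CPM (SD, n = 3 each; log2 fold change 0.76 ± 0.098, edgeR, adjusted p = 0.00023). Slc17a5, the lysosomal sialic acid exporter, had 0.38. Cmah, the hydroxylase that converts Neu5Ac to Neu5Gc in mice, fell from 21, 17 and 26 counts to 7, 2 and 8, or -1.68 ± 0.49 on the log2 scale (edgeR, adjusted p = 0.027), and leaving out any control library or optimized library 2 ended the call, with adjusted p-values up to 0.097 (edgeR). Of 5 tested genes for sialidases and sialate O-acetylation, 2 were higher and none lower, against the same shares of all genes, with a median of 0.38. They were Neu1, the lysosomal sialidase, and Siae, an esterase of O-acetylated sialic acid, with log2 fold changes of 0.48 and 0.38. Of 15 alternative analyses, Neu1 lost the call in 3, Siae in 6 and Slc17a5 in 4. Neu2 was at 0 counts in all libraries, and Neu4 had 1 count in all.

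The remaining marker lists hold genes of other cell types. Neutrophil and monocyte markers summed to at most 1.28 CPM in control and 5.58 CPM in optimized libraries, with S100a9, Ly6g and Mpo at 0 in all. S100a8 of that list was called higher, going from 2, 4 and 6 counts to 30, 72 and 30 (edgeR, adjusted p = 0.00039), and Plac8 had 54 counts in optimized library 1 and at most 1 elsewhere. Astrocyte markers summed to 32.1 to 35.3 CPM in control and 21.4 to 25.0 CPM in optimized libraries. Aldh1l1 was called lower, and the other 4 were not called. Neuron markers summed to 2.05 to 3.41 CPM in control and 3.92 to 4.25 CPM in optimized libraries. Nefl was called higher with a log2 fold change of 2.30 (edgeR, adjusted p = 0.0019), and the other 2 tested were not called. Fibroblast markers summed to 21.3 to 27.8 CPM in control and to 36.5, 22.0 and 78.7 CPM in optimized libraries 1 to 3. Their part in the Siglec results was not tested.

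Among 9799 genes with a mean of at least 5 CPM, the profiles most like that of each Siglec gene were found by the root mean square distance between log2 CPM values centred over the 6 libraries. Cd22 had close matches in Rftn1 and Bin2, with distances of 0.038 and 0.039. For Cd33 they were Abcc3, Armc9 and Per2, with 0.080, 0.083 and 0.084, and for Siglec1 Thoc2l, Atp13a3 and Atg2b, with 0.044, 0.076 and 0.078. The matches of Siglece were the mitochondrially encoded ATP8, ATP6 and ND1, with 0.12, 0.12 and 0.14, which had their highest control value in library 3 as Siglece did. Siglech was matched less closely, by H2-Ab1, Cnr2 and Thsd1 with distances of 0.21, 0.22 and 0.23. The distance describes these 6 libraries and was not tested.

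The fold changes held to different degrees when the data were analysed in other ways. Cd33 and Cd22 were called higher in 15 of 15 alternatives, with log2 fold changes from 1.22 to 1.52 and from 0.56 to 0.80. Siglecf was called in all 14 alternatives that kept it, from 1.74 on the log2(FPKM + 1) scale to 5.47. Siglech was called in 12 of 13, and Siglec1 in 8 of 15. Siglece was not called in any of 15, with values from 0.15 to 0.68.

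**Figure D4:**
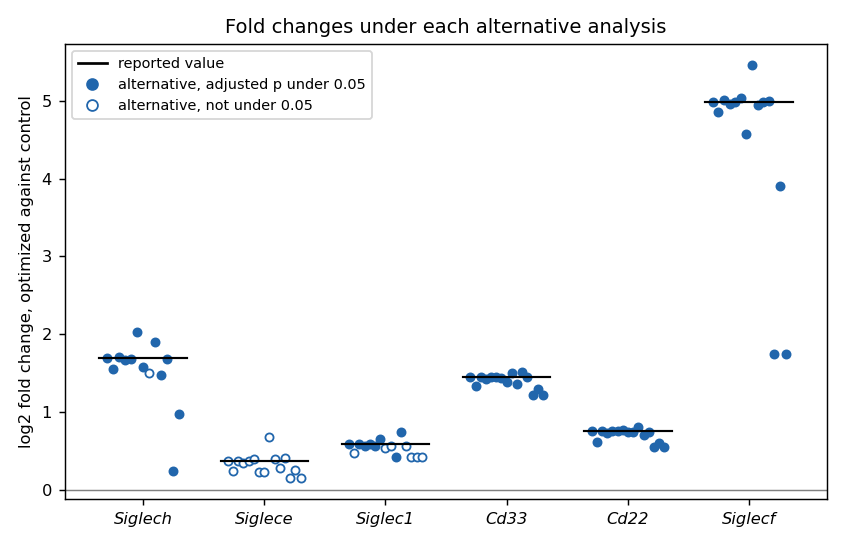
Log2 fold change of each Siglec gene under each alternative analysis (points, filled where the adjusted p-value was under 0.05) and as reported (black line). Cd33 and Cd22 stay close to their lines, Siglec1 has 8 filled points of 15, and the low points of Siglech and Siglecf come from log2 values of FPKM plus a pseudocount of 1 or 0.1.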

How the data were processed

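Reads were paired-end. Per the labels' processing notes, the authors used HISAT2, featureCounts and mm39; versions, annotation and the strand setting are not given in the sources used here. The deposited values are raw counts and FPKM per gene symbol, and how FPKM was computed is likewise not given in the sources used here. Each column was tied to its sample by the column's name. Members and gene lists were chosen with earlier results of these data known.

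Counts were filtered with filterByExpr, scaled with TMM and tested with glmQLFit and glmQLFTest of edgeR 4.0.16 in R 4.3.3, with condition as the only term and a threshold of 0.05 after Benjamini-Hochberg adjustment. Standard errors are the log2 fold change divided by the square root of F. The test was checked on simulated counts. Alternatives were RLE factors, unadjusted library size, DESeq2 1.42.0, other filters, a replicate block, each library left out, and limma 3.58.1 on log2(FPKM + 1) or log2(FPKM + 0.1), scales that understate changes of low genes. Coordinates and sequences are from GENCODE M39 on GRCm39, the build the labels name as mm39, where 35087 of 41079 symbols were found. Windows were aligned with Biopython 1.88 (match 1, mismatch -1, gap opening -3, gap extension -1).

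Named genes are the 5 members, the other Siglecs, the signalling partners, up to 6 called genes of largest change in each sialic acid list, the 3 closest profiles per member and the nearest protein-coding neighbours; markers are named where they bear on a Siglec gene. The study describes the libraries as biological replicates. The labels do not say that they are separate cultures, so p-values measure only the spread between these libraries, which may be technical. No protein sequences were used here, and a few named genes and the marker sums that hold them are not reported here.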

Additional observations from a re-analysis of the deposited data

How the results depend on the processing

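Cd33, Cd22, Siglech and Siglec1 kept a positive log2 fold change in every alternative that tested them, and Siglece stayed positive without a call. Siglec1 lost its call with library size alone (log2 fold change 0.47) and with limma on log2(FPKM + 1) with and without a minimum mean FPKM of 1 (0.42) and on log2(FPKM + 0.1) (0.42). With a library left out it ranged from 0.42 to 0.74, and its call was lost without control library 2 (0.53, edgeR, adjusted p = 0.094), control library 3 (0.57, edgeR, adjusted p = 0.064) or optimized library 3 (0.57, edgeR, adjusted p = 0.060). Siglech ranged from 1.47 to 2.03 with a library left out. A minimum of 10 counts in every library removed Siglech and Siglecf, and a mean FPKM of at least 1 removed Siglech, so these filters gave no value for them.

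Scaling moved the balance of all calls. Library size alone moved the median log2 fold change of all genes from 0.0079 to -0.12 and gave 1513 genes higher and 3168 lower, so 32.3% of calls were higher against 49.1% with TMM. limma gave 1307, 1312 and 1176 higher genes on log2(FPKM + 1), on log2(FPKM + 0.1) and with the FPKM minimum, against 2142. In the same order limma called 1, 1 and 1 genes of sialic acid synthesis higher, 0, 0 and 1 for the sialidase list, and 1, 1 and 1 sialyltransferases. Library size alone called 1 gene higher in the synthesis list and 1 in the sialidase list. The other Siglec genes had 0 higher calls with at least 10 counts in every library, and the synthesis list had 0 lower calls with that filter and with the FPKM minimum.

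With a library left out, the signalling partners had 1 to 3 higher and 2 to 4 lower calls, the synthesis list 2 to 4 higher and 0 to 1 lower, the sialidase list 1 to 3 higher, and the sialyltransferases 1 to 2 higher. The highest counts of higher partners, 3, and of higher synthesis genes, 4, came without optimized library 1, which also raised the calls over all genes from 4360 to 5234. Uncalled values near 0 changed sign. Luzp2 was 0.024 under the replicate block and -0.34 to 0.25 with a library left out, and Mag was -0.14 to 0.10. The causes were not tested.

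Libraries share numbers between conditions, but same-numbered libraries deviated together with correlations of 0.27, -0.012 and 0.19, so the numbers were not taken as pairs. With the number as a replicate block, 2401 genes were higher and 2523 lower, and log2 fold changes were 1.68 for Siglech, 0.56 for Siglec1, 1.45 for Cd33, 0.75 for Cd22 and 0.40 for Siglece, with no call changed among these 5. Not every library correlated best with its own number. With 3 libraries a group, depth limits Siglech and the control level of Siglecf, which rest on 29 and 18 control counts.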
